A study of Rattus norvegicus with 100 samples.

Results

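The comparison asked how the effect of ethinylestradiol (EE), a synthetic estrogen, on gene expression in the uterus of immature female rats shifted between 48 h and 72 h of a uterotrophic assay. The samples were chosen by tissue, treatment and time in their titles, which gave 20 of the 100 arrays of the series: 5 EE and 5 control arrays at 48 h, and 5 EE and 5 control arrays at 72 h. The EE effect at a time is the mean log2 level of the EE arrays minus that of the control arrays of the same time. Levels are log2(intensity + 30.4), a scale that understates changes of dim genes, with the probe set of the highest mean taken for each gene. The shift is the EE effect at 72 h minus the EE effect at 48 h, so a gene with a shift of 1 had an EE effect that was 2-fold higher at 72 h. Each shift was also taken apart into the change of the EE arrays from 48 h to 72 h (EE change) and that of the control arrays (control change). A gene passed, and is said to have risen or fallen, where its limma p, adjusted by Benjamini and Hochberg over all genes tested in that comparison, was under 0.05. Strain, age in days, dose, route, times of dosing and the treatment of the control animals are not in the labels. Nor do these tie an array to an animal, so the p-values rest on the spread between arrays within groups, pooled over the 70 uterus arrays in 14 groups, part or all of which may be technical.

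In an immature rat the ovaries make little estrogen, and an estrogen given from outside makes the uterus take up water, grow and remodel its epithelium within a few days. Estrogen acts through nuclear estrogen receptors that bind DNA, and early target genes are followed by waves of protein synthesis, cell division and, later, differentiation and immune cell traffic. Complement C1q, whose 3 chains are encoded by C1qa, C1qb and C1qc, starts the classical complement pathway, helps phagocytes to clear dying cells and is made in tissues mainly by macrophages.

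Values on these 20 arrays were linear intensities of Affymetrix RAE230A probe sets, with 9338 to 10560 values per array and the rest blank. EE and control arrays differed at both times in measures of array quality. The log2 difference between 3' and 5' probe sets of Actb was 0.314 ± 0.143 on EE arrays and 0.66 ± 0.264 on control arrays at 72 h, and 0.245 ± 0.132 and 0.606 ± 0.177 at 48 h (SD, n = 5; exact permutation tests, adjusted p = 0.0454 and 0.0318). The share of blank cells was 39.2% ± 2.38 on EE and 36.3% ± 0.86 on control arrays at 72 h, and 37.2% ± 1.83 and 34.9% ± 1.44 at 48 h (exact permutation tests, adjusted p = 0.0454 and 0.0556). Their part in the results was not tested. The root mean square distance from the group mean over all genes lay between 0.112 and 0.150 (log2) on 19 of the arrays and was 0.170 on EE 72 h array 84, against 0.132 to 0.142 on the other EE arrays of 72 h. Of 23 smooth muscle markers on the arrays, 21 had a value on all 20 arrays, and of 18 markers of stromal fibroblasts 16 did. Of 16 ovary, oviduct and cilia markers, 10 were blank on all 20 arrays. Of 20 skeletal muscle markers, 4 had a value on all arrays. Their summed intensity had medians of 2790 on EE and 1500 on control arrays at 48 h, and 3200 and 1730 at 72 h. For 6 of 18 adipocyte markers the medians were 739 and 1320 at 48 h, and 635 and 1280 at 72 h. Where these signals come from was not tested.

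Most of the response to EE was carried over from 48 h to 72 h. In the limma fit, 3977 of 6967 genes tested (57.1%) passed an adjusted p of 0.05 for the EE effect at 48 h, 1681 higher and 2296 lower, and 4071 of 6764 (60.2%) passed at 72 h, 1580 higher and 2491 lower (36.8%). With each array centred on its median, which moved the median EE effect at 72 h from -0.07 to 0.04, the split was 2229 higher and 1688 lower at 48 h and 2228 higher and 1727 lower at 72 h. Among the 6676 genes tested at both times, 3193 passed at both, which is 83.09% of the 48 h calls and 78.9% of the 72 h calls. All but 4 of these 3193 had the same sign at both times, and the 4 were Crabp1, Cct7, Hspd1 and Zdhhc14. Hspd1, a mitochondrial chaperonin, went from 0.18 to -0.18 and Zdhhc14, a palmitoyl transferase, from -0.20 to 0.25, but their shifts of -0.36 and 0.44 did not pass (limma, adjusted p = 0.067 and 0.053). The plot of both effects shows the genes along the diagonal (Pearson r = 0.93, Spearman rho = 0.89 across genes, which are not independent replicates), and the slope among genes that passed at both was 1.04.

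**Figure D1:**
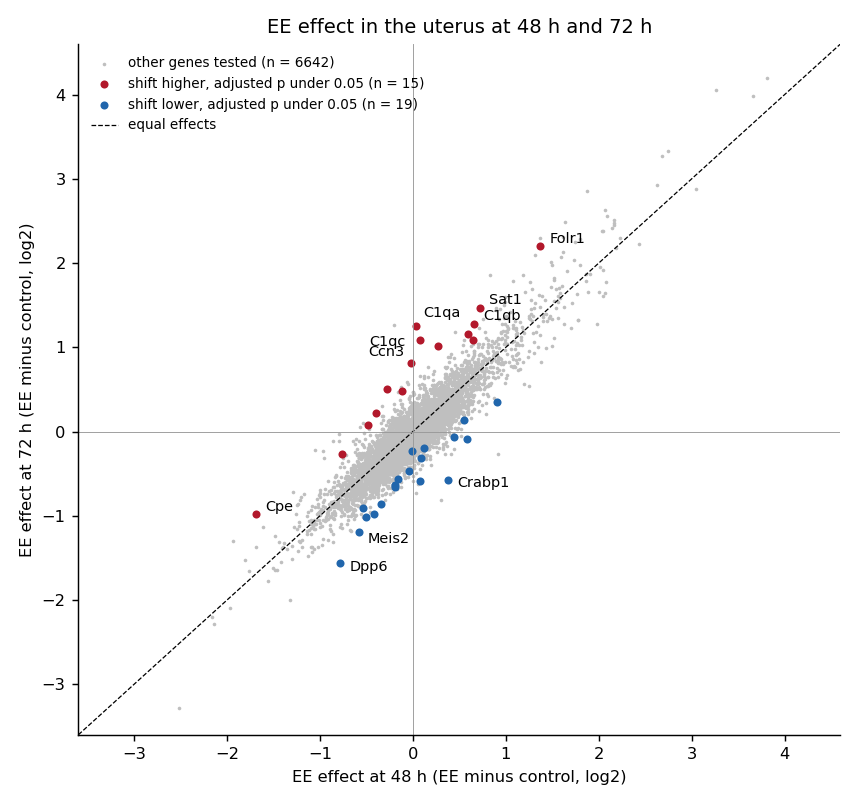
Each point is a gene, with its EE effect at 48 h on the horizontal axis and at 72 h on the vertical axis (both log2, EE minus control, 5 arrays per group). The 34 genes whose effect shifted lie off the dashed line of equal effects: 15 above it (red), among them C1qa and C1qc near 0 at 48 h, and 19 below it (blue), while the other genes are grey.

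The EE effect itself shifted for few genes. A shift passed in 34 of 6676 genes (0.509%), higher in 15 (0.225%) and lower in 19 (0.285%), and 878 genes (13.2%) had an unadjusted p under 0.05. With arrays centred on their median the split was 20 higher and 12 lower. The 15 genes with a higher shift were C1qa, C1qc, Ccn3, Folr1, A2m, Sat1, Clec10a, Cpe, Cxcr4, C1qb, Htra3, Fndc1, Pfkp, Smad3 and Npc2, and the shifts ran from 1.22 to 0.43. The 19 with a lower shift were Crabp1, Dpp6, Hnrnpm, Herpud1, Meis2, Mfap2, Eif2ak2, Slc39a8, Rprm, Irf9, Ruvbl1, Maged1, Khdrbs1, Plxna3, Rcn3, Aamp, Rcbtb2, Cct7 and Bap1, from -0.95 to -0.22. The EE effect grew in size in 19 of the 34, shrank in 4 and turned in sign in 11. The median standard error of a shift over all genes was 0.117, so small shifts were not detectable with 5 arrays per group. The count moved with single arrays: it was 18 without control 72 h array 76, 19 without EE 72 h array 84, 22 without EE 48 h array 71, 53 without control 72 h array 78 and 60 without EE 48 h array 69. Without arrays 71 and 84 together, a setting added after the values were seen, 14 genes passed, of which 13 were among the 34.

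Each shift was then taken apart into its EE change and its control change. The EE change passed in 753 of 6967 genes (10.8%), 286 higher (4.11%) and 467 lower (6.7%), and the control change in 133 of 7223 (1.84%), 85 higher (1.18%) and 48 lower. The EE split was 435 higher and 290 lower with median centring and 175 higher and 492 lower with quantile normalization, and the control split with quantile normalization was 57 higher and 80 lower. Of the 34 genes, 23 had an EE change that passed and a control change that did not, 5 the reverse, 3 both and 3 neither. Passing does not tell which change was larger: in 12 of the 34 the control change was larger in size. Irf9 (EE change -0.249, control change 0.254) and Smad3 (0.239 and -0.264) are such cases among the 23. In 28 of the 34 the EE arrays and the control arrays moved in opposite directions. The shift is the EE change minus the control change, so picking genes by their shift favours opposite movement. Nothing is read from the 28. The EE arrays of 48 h and 72 h did not overlap in 15 of the 34 genes, against 419 of all 6676 (6.28%), and the control arrays in 11, against 270 (4.04%); the shift is made from these arrays, so nothing is read from the excess. The EE count was 310 without EE 48 h array 71, 287 without EE 72 h array 84 and 108 without both. The control count was 46 without control 48 h array 63, 66 without control 72 h array 73, 30 without array 76 and 269 without array 78.

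**Figure D2:**
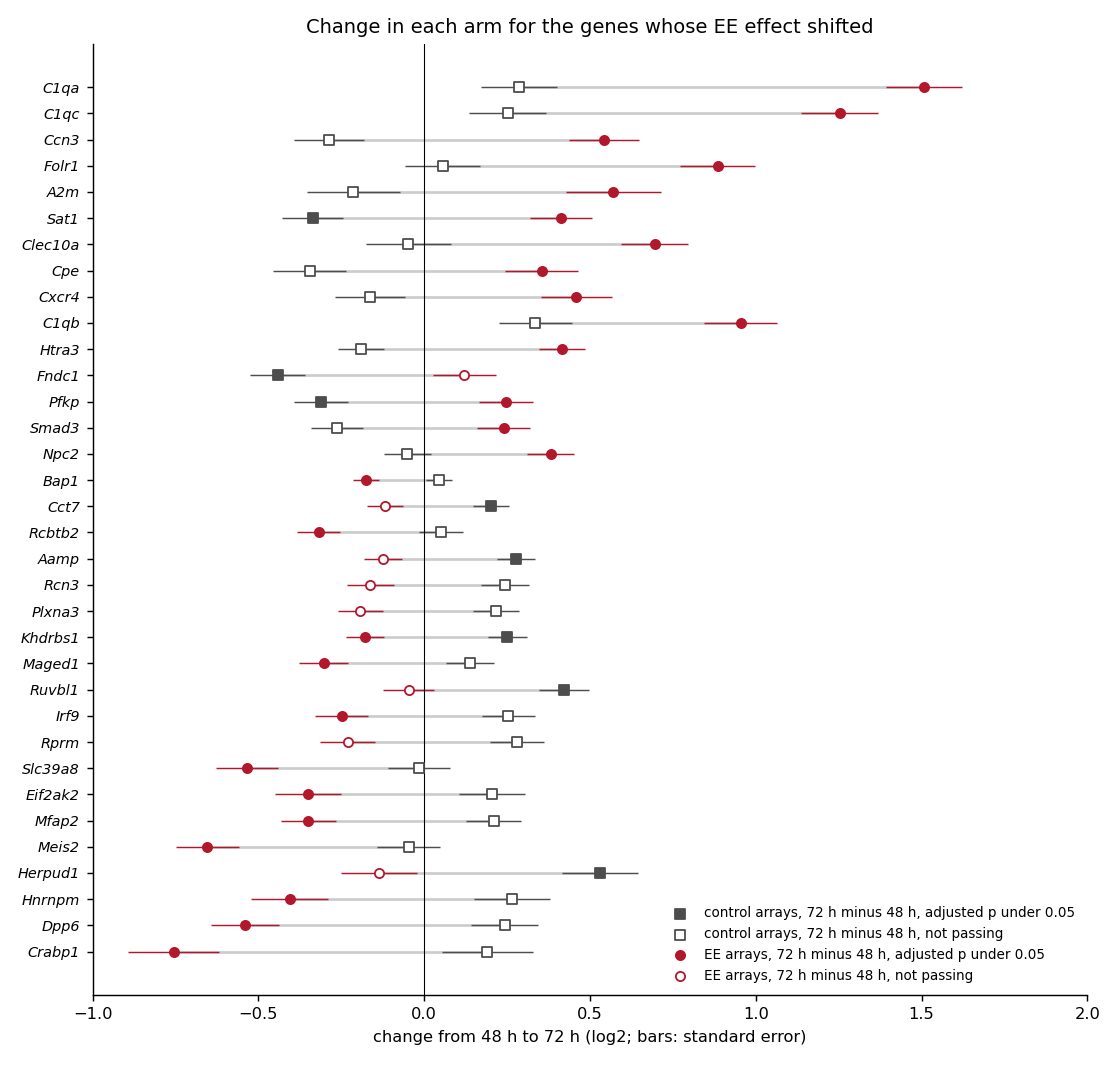
For each of the 34 genes, the change from 48 h to 72 h on control arrays (grey squares) and on EE arrays (red circles) is given on the horizontal axis in log2, with standard errors as bars and filled symbols where the change passed. The distance between both symbols is the shift: in C1qa the EE arrays rose by 1.51 while the control change of 0.29 did not pass, whereas in Ruvbl1 the control arrays rose by 0.42 and the EE change was -0.05.

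The largest shift belonged to C1q. C1qa had intensities of 256.5, 197, 197, 163.6 and 231.9 on the EE arrays at 48 h and of 516.6, 633.3, 552, 696.6 and 881.8 at 72 h. Its control arrays read 286.2, 190.4, 164.1, 162.9 and 223.5 at 48 h and 279.7, 201.7, 262.1, 247.4 and 276.5 at 72 h. Only the EE arrays of 72 h stood apart: they did not overlap with any other of these groups. The EE effect of C1qa was 0.04 at 48 h (adjusted p = 0.81) and 1.26 at 72 h, and the shift was 1.22 ± 0.16 (SE, limma, adjusted p = 1.9e-06).

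C1qc behaved alike, with EE arrays at 159.5 to 238.3 at 48 h and 397.6 to 687.3 at 72 h, and control arrays at 142.7 to 208.1 and 176.4 to 252.1. Its EE effect was 0.08 at 48 h and 1.08 at 72 h, and its shift was 1.002 ± 0.16 (limma, adjusted p = 0.00016). C1qb was already higher with EE at 48 h, when its EE arrays read 140.4 to 201 and its control arrays 81.28 to 116.4. At 72 h they read 275.4 to 453.3 and 94.8 to 163.6. The EE effect of C1qb was thus 0.66 at 48 h and 1.28 at 72 h, and its shift of 0.62 ± 0.16 passed narrowly (limma, adjusted p = 0.040). C1qb failed in 10 of the 20 fits that each left out 1 array, with shifts of 0.532 to 0.698 and adjusted p up to 0.118, whereas C1qa and C1qc passed in all 20. Without arrays 71 and 84 the shifts were 1.04 for C1qa, 0.836 for C1qc and 0.482 for C1qb, of which the last did not pass.

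The C1q genes lie side by side on rat chromosome 5 in the order C1qb, C1qc and C1qa (RefSeq, GRCr8). Promoters were looked at because these neighbours moved together. RefSeq promoter sequences were found for 27 of the 34 genes, and C1qc was not among them. The 250 bases before the start of C1qa (chr5:154419934-154420183, minus strand) and C1qb (chr5:154407828-154408077, minus strand) are shown with capitals at 4 runs of 8 bases that both contain, a feature looked for after the values were seen. These runs were picked as the longest that both share, so their presence in both is no result. How often other pairs of promoters share runs of this length was not tested.

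C1qa: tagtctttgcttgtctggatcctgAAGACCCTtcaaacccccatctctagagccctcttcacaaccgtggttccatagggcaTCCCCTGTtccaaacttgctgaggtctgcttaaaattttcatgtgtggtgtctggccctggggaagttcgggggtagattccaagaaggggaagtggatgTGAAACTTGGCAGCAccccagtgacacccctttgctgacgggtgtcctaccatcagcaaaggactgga
C1qb: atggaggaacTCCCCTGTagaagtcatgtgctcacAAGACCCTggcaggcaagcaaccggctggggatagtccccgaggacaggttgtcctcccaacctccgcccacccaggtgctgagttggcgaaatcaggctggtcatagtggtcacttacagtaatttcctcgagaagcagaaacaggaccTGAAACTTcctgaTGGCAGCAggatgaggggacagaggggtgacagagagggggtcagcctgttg

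The runs AAGACCCT, TCCCCTGT, TGAAACTT and TGGCAGCA occur on either strand in 0.878%, 1.15%, 0.965% and 1.39% of 27457 RefSeq promoters. Only the 250 bases before each start were searched, here and for the other patterns named below. TGAAACTT and TGGCAGCA begin 68 and 61 bases before the start in C1qa and 65 and 52 bases before it in C1qb. The palindrome of the estrogen response element (the arms GGTCA and TGACC with 3 bases between them, searched on both strands) was found in 0 of the 27 promoters and in 0.0219% of all promoters.

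Genes that mark macrophages were followed as a list. Of its 19 members on the arrays, 11 of 14 tested were higher with EE at 48 h (24.1% of all genes) and 13 of 14 at 72 h (23.4%). From 48 h to 72 h, 7 of 18 tested rose on EE arrays (background 4.11%), and 0 of 14 passed on control arrays (4 at an unadjusted p under 0.05, limma). The 7 were C1qa, C1qb and C1qc, the cathepsin Ctss (0.61), the Fc receptor Fcgr3a (0.59), the lysosomal protein Cd68 (0.49) and Laptm5 (0.42), and without arrays 71 and 84 the count was 3. The shift passed in 3 of 14, all of them C1q chains, and in 2 without array 71, without array 84 or with quantile normalization. The median shift of the list was 0.25, against -0.03 over all genes, and the members outside C1q had shifts between -0.22 (Aif1) and 0.41 (Ctss) that did not pass. Csf1r, the receptor on which macrophages depend for survival, read 206.9 to 234.1 on EE arrays at 48 h and 192.3 to 323.3 at 72 h, with 95.5 to 128.7 and 105.9 to 116.8 on control arrays. It was thus raised by EE at both times, with a shift of 0.23 (adjusted p = 0.41). The summed intensity of the 13 markers with a value on all arrays had medians of 2470 on control and 5630 on EE arrays at 48 h, and of 2550 and 7230 at 72 h. In bulk tissue, more cells of a type and more RNA per cell cannot be told apart.

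Of the antigen presentation genes, 10 of 14 tested were higher and 3 lower with EE at 48 h, and 10 and 1 at 72 h (24.1% and 33% of all genes at 48 h, 23.4% and 36.8% at 72 h). The 3 lower ones at 48 h were Cd74, RT1-Da and RT1-Db1. Cd74, the invariant chain of class II molecules, read 207.7 to 389.4 on EE arrays at 48 h against 439.2 to 697.2 on control arrays, and 507.2 to 737.1 against 498.6 to 708.1 at 72 h. RT1-Da, a class II chain, read 160.9 to 235.9 against 295.5 to 554.9 at 48 h, and 336.7 to 465.5 against 371.4 to 553.7 at 72 h. Both were lowered by EE at 48 h, with effects of -0.79 and -0.97, and at 72 h their effects were -0.11 and -0.24. The EE changes of 0.97 and 0.92 passed, also without arrays 71 and 84 (0.814 and 0.809), but the shifts of 0.69 and 0.73 did not (limma, adjusted p = 0.15 and 0.093). Of 16 members tested, 5 rose on EE arrays (background 4.11%) and 0 fell, the others being RT1-Db1 (0.66), Ctss (0.61) and B2m (0.47). These 3 did not pass without arrays 71 and 84 (adjusted p = 0.0856, 0.127 and 0.168). RT1-Db1 was still lowered by EE at 72 h, with effects of -0.92 and -0.59 that both passed. Its shift of 0.33 did not pass (limma, adjusted p = 0.52). Clec10a, a lectin of dendritic cells and macrophages that binds galactose, read 69.26 to 83.44 on EE arrays at 48 h and 101.3 to 174.5 at 72 h, and 3 of 5 control arrays had a value at each time, from 47.6 to 62.45. Its shift was 0.74 ± 0.16 (adjusted p = 0.033), which rests on 3 control arrays per time and did not pass without arrays 71 and 84 (0.71, adjusted p = 0.0722). Cxcr4, the receptor of the chemokine Cxcl12, had an EE effect of -0.40 at 48 h and 0.22 at 72 h, with EE arrays at 42.86 to 53.29 and then 61.48 to 91.93 and control arrays at 62.14 to 92.13 and then 42.88 to 81.94. Its shift of 0.62 passed (adjusted p = 0.033), while its 2 other probe sets gave 0.33 and 0.44 and did not. It passed in 10 of the 20 fits without 1 array and not without arrays 71 and 84 (0.571, adjusted p = 0.156).

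**Figure D3:**
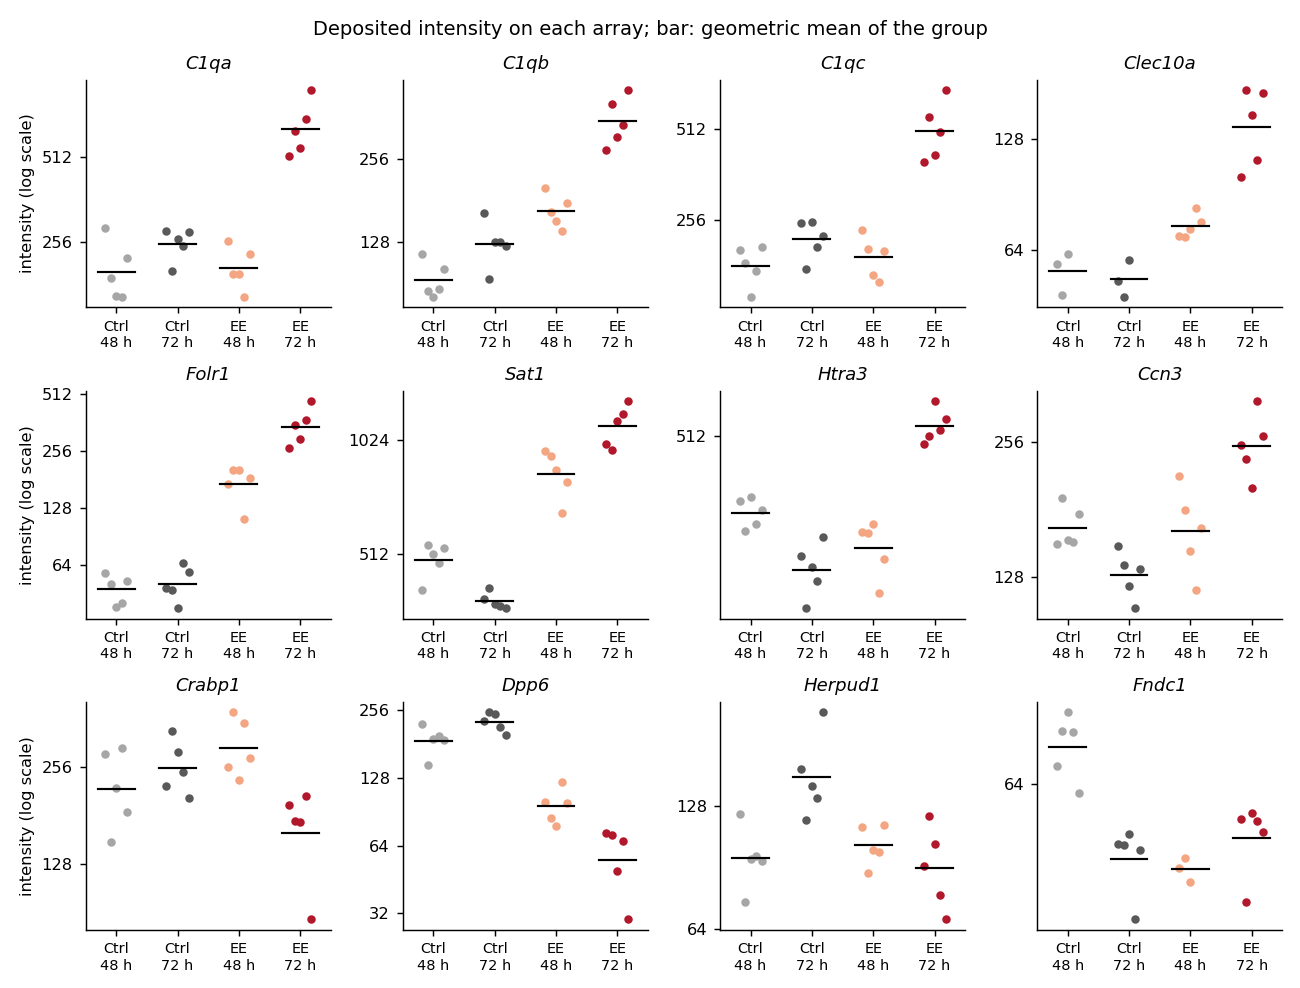
Each panel shows a gene, each point the deposited intensity on 1 array (log axis) and each bar the geometric mean of its group, for control (Ctrl) and EE arrays at 48 h and 72 h. The EE arrays of 72 h lie above the other groups in the C1q genes, Clec10a, Folr1 and Htra3, and below most arrays in Crabp1 and Dpp6, while in Herpud1 and Fndc1 the control arrays moved.

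Folr1 and Sat1 were raised by EE at 48 h and more so at 72 h. Folr1, a folate receptor of epithelial cells, read 112 to 203.7 on EE arrays at 48 h and 263.8 to 466.8 at 72 h, against 38.35 to 58.28 and 37.84 to 65.37 on control arrays. Its EE effect went from 1.37 to 2.20, a shift of 0.83 ± 0.16 (limma, adjusted p = 0.0018) that came from the EE arrays, although it did not pass without arrays 71 and 84 (0.6, adjusted p = 0.0539). Sat1, the enzyme that acetylates polyamines for export and breakdown, read 658.8 to 961.5 and then 967.7 to 1299 with EE, and 412.7 to 541 and then 368.6 to 417.3 in controls. Here EE arrays rose by 0.41 and control arrays fell by 0.34, and the shift was 0.75 ± 0.13 (adjusted p = 0.00056). Pfkp, a phosphofructokinase of glycolysis, read 346.5 to 417.8 and then 422.6 to 472.4 with EE and 230 to 260.9 and then 176 to 197.1 in controls, with an EE effect of 0.59 at 48 h and 1.15 at 72 h and changes that passed in both arms. Npc2, which binds cholesterol in lysosomes, went from 666.7 to 868.7 at 48 h to 990.5 to 1116 at 72 h on EE arrays, with a shift of 0.43 (adjusted p = 0.021), while its control arrays lay between 446 and 565.2 at both times. This shift passed in 15 of the 20 fits without 1 array and not without arrays 71 and 84 (0.348, adjusted p = 0.175).

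Ccn3, Htra3 and A2m had an EE effect that passed at 72 h and not at 48 h, while Smad3 and Cpe were lowered by EE at both times and less so at 72 h. Ccn3, a secreted regulator of the matricellular CCN family, read 120 to 215.3 on EE arrays and 151.5 to 191.6 on control arrays at 48 h, and 201.5 to 314.8 and 109.2 to 150.2 at 72 h. Its EE effect was -0.02 and then 0.81, with a shift of 0.83 ± 0.15 (limma, adjusted p = 0.00077). Htra3, a secreted serine protease, read 345.6 to 410.9 and then 502.5 to 559.4 with EE, and 403.6 to 439.4 and then 332.6 to 398.1 in controls. No group of Htra3 at 72 h overlapped with that of the same treatment at 48 h, and the shift was 0.61 ± 0.10 (adjusted p = 0.00016). A2m, a protease inhibitor, read 53.78 to 80.02 and then 64.37 to 159.5 with EE and 73.29 to 107.8 and then 57.78 to 111.5 in controls, so that its groups overlapped. Its effects were -0.28 and 0.50, and its shift of 0.78 ± 0.20 failed in 13 of the 20 fits that left out 1 array (adjusted p = 0.043 with all arrays, up to 0.0848). Smad3, which carries signals of the transforming growth factor beta receptors, had effects of -0.77 at 48 h and -0.26 at 72 h and a shift of 0.50 (adjusted p = 0.014). Its EE arrays read 53.23 to 63.43 and then 58.14 to 90.74, its control arrays 110.8 to 125.9 and then 75.71 to 108.1. Without control 72 h array 76 it did not pass (adjusted p = 0.0519). Cpe, a carboxypeptidase that trims peptide hormones, was the most strongly lowered of the 34 genes at 48 h, with an effect of -1.68, and stood at -0.98 at 72 h. Its EE arrays read 262.8 to 381.2 and then 329.8 to 444.7, its control arrays 883.8 to 1247 and then 685.4 to 983.9, and its shift of 0.70 (adjusted p = 0.015) also failed without array 76 (adjusted p = 0.0519).

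Crabp1, Dpp6, Meis2 and Mfap2 had a lower shift in which the EE arrays fell. Crabp1, which binds retinoic acid in the cytoplasm, read 255.5, 377.4, 232.5, 349.7 and 273.2 on EE arrays at 48 h and 195.2, 173.1, 172.4, 208 and 85.84 at 72 h. The EE arrays of both times did not overlap, while the control arrays, at 149.1 to 292.6 and 203.9 to 331, did. Its EE effect passed at both times with opposite signs, 0.37 and -0.57, and the shift was -0.95 ± 0.19 (limma, adjusted p = 0.0051). Without arrays 71 and 84 it was -0.707 and did not pass (adjusted p = 0.0722). Dpp6, a subunit that associates with potassium channels, was lowered by EE at both times, with effects of -0.78 and -1.57. Its EE arrays read 78.3 to 122.4 and then 30.13 to 73.03, and its shift was -0.78 ± 0.14 (adjusted p = 0.00091). Meis2, a homeobox transcription factor, read 330 to 384.1 and then 126.1 to 259.5 with EE, and 466.1 to 599.8 and then 477.8 to 551.5 in controls. Its shift of -0.61 (adjusted p = 0.014) was -0.455 without EE 72 h array 84, which held the lowest value, and did not pass then (adjusted p = 0.0602). Mfap2, a protein of elastic microfibrils, read 328.3 to 496.6 and then 260.2 to 359.9 with EE, and 493.3 to 609.6 and then 558 to 715.7 in controls, and its effect went from -0.42 to -0.98. Its shift of -0.56 (adjusted p = 0.0063) passed neither without arrays 71 and 84 nor with only the 4 groups in the fit. Rprm, a cell cycle inhibitor downstream of p53, had effects of -0.50 and -1.02, and its control arrays, at 688.7 to 945.5 and then 950.8 to 1226, did not overlap. Its shift of -0.51 (adjusted p = 0.016) did not pass without control 48 h array 66 or without control 72 h array 76. Nor did it pass without arrays 71 and 84 or with only the 4 groups in the fit.

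From the interferon response list, Eif2ak2 and Irf9 had an EE effect that became smaller. Eif2ak2, the kinase that senses double-stranded RNA and blocks translation, read 77.57 to 105.8 on EE arrays at 48 h and 57.39 to 82.27 at 72 h, with 25.15 to 48.41 and 38.34 to 55.47 on control arrays. EE thus raised it at both times, by 0.90 and 0.35, with a shift of -0.55 ± 0.14 (limma, adjusted p = 0.040) that failed in 11 of the 20 fits without 1 array. Irf9, the DNA-binding part of the interferon-stimulated complex ISGF3, had effects of 0.44 and -0.06. Its EE arrays read 112.9 to 137.8 and then 87.99 to 115.5, its control arrays 68.95 to 90.42 and then 84.97 to 127.8, and its shift of -0.50 (adjusted p = 0.015) passed in all 20 such fits. Most of the list was raised by EE at both times, 23 of 26 members tested at 48 h and 22 of 27 at 72 h (24.1% and 23.4% of all genes). Its median shift was -0.12, against -0.03 over all genes, and 2 of 26 shifts passed (1 with median centring or quantile normalization). Irf7, the factor that sustains interferon production, read 476.9 to 638.6 with EE at 48 h and 446.6 to 679.5 at 72 h, with a shift of -0.15 that did not pass. The promoter of Eif2ak2 (chr6:21940904-21941153, plus strand, RefSeq, GRCr8) is printed because it holds GAAA, 2 bases and GAAA, a letter pattern of interferon-stimulated elements that was searched on both strands after the values were seen. It lies 16 bases before the start and is given in capitals. The pattern is found in 3.29% of all promoters, 2.55% of those of genes tested and 3 of the 17 with a lower shift. The 3 are Dpp6, Eif2ak2 and Khdrbs1, while Irf9 has no match. Nothing is read from this count. Also searched were CCAAT, AP-1 and E2F sites, the cell cycle homology region and, after the values were seen, the PU.1 core. The PU.1 core was found in 3 of 10 promoters with a higher shift and 4 of 17 with a lower one, against 21.5% of genes tested.

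Eif2ak2: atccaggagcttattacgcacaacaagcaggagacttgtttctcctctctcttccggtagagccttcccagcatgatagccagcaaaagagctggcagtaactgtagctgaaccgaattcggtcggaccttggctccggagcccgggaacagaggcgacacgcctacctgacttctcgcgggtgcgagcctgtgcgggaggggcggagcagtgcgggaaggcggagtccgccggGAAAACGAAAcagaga

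In Herpud1, Ruvbl1, Aamp and Cct7 the control arrays rose, the EE change did not pass and the shift was lower. Herpud1, which serves the disposal of misfolded proteins of the endoplasmic reticulum, read 74.56 to 122.7 on control arrays at 48 h and 118.8 to 218.2 at 72 h, a rise of 0.53 (limma, adjusted p = 0.0078). Its EE arrays overlapped, at 87.77 to 114.9 and then 67.41 to 121, with a change of -0.14 that did not pass, and the shift was -0.67 ± 0.16 (adjusted p = 0.033) and failed in 9 of the 20 fits without 1 array. Ruvbl1, an ATPase of chromatin remodelling and snoRNP assembly, read 64.9 to 86.23 and then 101.5 to 121.6 in controls and 55.34 to 84.55 and then 53.86 to 67.73 with EE. The control change of 0.42 passed and the EE change of -0.05 did not, so the EE effect went from -0.19 to -0.66. Cct7, a subunit of the chaperonin of actin and tubulin, rose by 0.20 in controls, from 353 to 391.7 at 48 h to between 421.1 and 452.4 at 72 h. Its EE effect turned from 0.12 to -0.20, both of which passed, the first narrowly (limma, adjusted p = 0.047). The shift of -0.32 (adjusted p = 0.030) passed in 15 of the 20 fits without 1 array. It passed neither with median centring, with only the 4 groups in the fit, nor without arrays 71 and 84. Aamp also had a control change that passed (0.28) and an EE change that did not (-0.12). Khdrbs1, an RNA-binding protein of splicing, rose by 0.25 in controls and fell by 0.18 with EE, and both passed. Its other probe set gave a shift of -0.12 that did not pass, against -0.43 on the main probe set. Hnrnpm, another splicing factor, differed in that the EE arrays fell by 0.41. They read 175.7 to 261.5 at 48 h and 125.5 to 183.8 at 72 h, while the control change of 0.27 did not pass. Its shift of -0.67 (adjusted p = 0.032) passed in 13 of the 20 fits without 1 array and not without arrays 71 and 84 (-0.561, adjusted p = 0.191). The reverse case was Fndc1, a fibronectin domain protein, which read 61.55 to 86.28 and then 36.4 to 51.86 in controls, a fall of 0.44, and had an EE change of 0.12 that did not pass. Of its EE arrays at 48 h only 3 had a value.

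The remaining genes with a lower shift were Slc39a8, Maged1, Rcbtb2, Bap1, Plxna3 and Rcn3. Slc39a8, a zinc and manganese importer, read 57.66 to 83.66 and then 29.44 to 49.78 on EE arrays, with no overlap, and 82.1 to 110.1 and then 82.99 to 103.4 on control arrays. Its shift of -0.52 (limma, adjusted p = 0.047) lay closest to the threshold and passed in 6 of the 20 fits without 1 array. Bap1, a deubiquitinase of histone H2A, had a shift of -0.22 ± 0.06 (adjusted p = 0.040), with EE arrays at 185.1 to 212.8 and then 167.2 to 186 and control arrays between 198.7 and 218.1 at both times. It passed in 7 of the 20 fits, and neither with median centring nor without arrays 71 and 84 (adjusted p = 0.175). Maged1, a protein of the MAGE family, read 413.6 to 580.5 and then 327.2 to 451.2 with EE and 506.1 to 598.7 and then 562.6 to 666.1 in controls, with a shift of -0.44 (adjusted p = 0.022) that did not pass without arrays 71 and 84 (adjusted p = 0.221). Rcbtb2 read 38.84 to 56.43 and then 25.22 to 35.41 with EE, without overlap, and its effect went from -0.54 to -0.91. Its shift of -0.37 passed in 11 of the 20 fits, and neither with median centring, with quantile normalization nor without arrays 71 and 84 (adjusted p = 0.219). Plxna3, a receptor of semaphorins, had effects of -0.16 and -0.57, and its other probe set gave a shift of -0.10 that did not pass, against -0.41. Rcn3, a calcium-binding protein of the secretory pathway, was raised by EE at 48 h (0.55), and at 72 h its effect of 0.14 did not pass. Its shift of -0.41 passed in 11 of the 20 fits, and neither with median centring nor without arrays 71 and 84 (adjusted p = 0.191). Plxna3, Rcn3 and Rprm passed in the shift without passing in either arm.

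Some genes drifted in the same direction on EE and control arrays. Among the 6676 genes, 716 had an EE change that passed and 128 a control change that passed. Both passed in 33, which is 4.609% of the EE changes and 25.78% of the control changes, and 30 of the 33 moved in the same direction. Of those 30, 0 had a shift that passed, and 0 had one at an unadjusted p under 0.05 (limma). Over all 6676 genes these shares were 0.509% and 13.2%. The shift is the difference of the 2 changes by which the 30 were picked, which favours small shifts. Nothing is read from the 0. Id2, an inhibitor of helix-loop-helix factors, read 491.9 to 684.8 in controls at 48 h and 289.8 to 440.8 at 72 h, and 319.4 to 510.2 and then 135.7 to 199.7 with EE. It fell by 0.77 in controls and by 1.06 with EE, and its shift of -0.29 did not pass (limma, adjusted p = 0.56). Nfix, a nuclear factor I protein, fell by 0.84 in controls and by 0.94 with EE, with a shift of -0.10. Klf9, a Krüppel-like factor that responds to steroid hormones, fell by 0.41 and 0.46, with a shift of -0.05. Xist, the RNA of the inactive X chromosome, fell by 0.76 and 1.11. Across the 6676 genes the EE change and the control change had a Pearson r of 0.32 and a Spearman rho of 0.34 across genes, which are not independent replicates.

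Genes by which estrogen action in the uterus is usually followed formed a list of their own. Of 21 estrogen-responsive genes tested at 48 h, 16 were higher and 3 lower with EE (24.1% and 33% of all genes), and of 20 tested at 72 h, 16 and 3 (23.4% and 36.8%). Of 20 shifts, 0 passed and 4 had an unadjusted p under 0.05 (limma), with a median of 0.14. S100g, the calcium-binding protein calbindin D9k, read 1047 to 1624 on EE arrays at 48 h and 1723 to 2467 at 72 h, against 51.1 to 95.74 and 59.15 to 90.4 on control arrays, with a shift of 0.39 (limma, adjusted p = 0.38). Igf1, a growth factor of the uterine stroma, had EE effects of 1.12 and 1.05. Vegfa, the endothelial growth factor, was lowered, with effects of -1.44 and -1.32. Pgr, the progesterone receptor, had an effect of 0.24 at 48 h that did not pass, an effect of 0.49 at 72 h that did, and a shift of 0.25 (adjusted p = 0.52). Esr1, the estrogen receptor, had an effect of 0.25 at 48 h that passed and one of 0.20 at 72 h that did not. Fos had effects of 0.86 and 1.003, Kap, an androgen-regulated kidney protein that is also made in rodent uterus, 3.66 and 3.98, all of which passed. Ccnd1, cyclin D1, had effects of -0.14 and 0.02 that did not pass. The shifts of these genes did not pass. Complement C3 read 1486 to 2627 on EE arrays at 48 h and 3212 to 4871 at 72 h, without overlap, while only 3 and 2 of the 5 control arrays had a value, between 26.8 and 38.95. Its EE effect at 72 h and its shift could therefore not be tested. Its EE change of 0.65 passed (adjusted p = 0.026) but not without array 71 (0.498, adjusted p = 0.134), without array 84 (0.538, adjusted p = 0.117) or without both (0.387, adjusted p = 0.38).

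Cell division genes were raised by EE at both times. Of 15 mitosis genes tested, all 15 were higher with EE at 48 h and 14 at 72 h (24.1% and 23.4% of all genes), with median effects of 1.40 and 1.23. Mki67, a marker of cycling cells, read 204.9 to 316.7 on EE arrays at 48 h and 109.5 to 168.4 at 72 h, and 4 of 5 control arrays at each time read 19.8 to 54.51. It fell by 0.60 with EE (limma, adjusted p = 0.043), and its shift of -0.45 did not pass (adjusted p = 0.55). The mitotic kinases Aurkb and Plk1 also fell with EE, by 0.36 and 0.46, with 3 values of Plk1 on the EE arrays of 72 h. These were 3 of 23 members tested for the EE change (background 6.7%), and 0 passed without EE 48 h array 71, without EE 72 h array 84, or with median centring. All 15 shifts were below 0 (14 with median centring), where 58.2% of all genes tested were, and the median was -0.22. None passed in this limma fit, and 3 had an unadjusted p under 0.05.

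Cholesterol synthesis showed a like picture: 15 of 19 genes tested were higher with EE at 48 h and 13 of 19 at 72 h (24.1% and 23.4% of all genes). The median effects were 0.69 and 0.40, and 16 of 17 shifts were below 0, of which 0 passed and 7 had an unadjusted p under 0.05 (limma). Over all 6676 genes tested, 3884 shifts were below 0 and 878 (13.2%) had an unadjusted p under 0.05. Acat2, Lss and Pmvk fell on EE arrays, by 0.55, 0.31 and 0.26 (3 of 20 tested, background 6.7%), and none of the list did without arrays 71 and 84. Fdps, which makes farnesyl diphosphate, had effects of 1.99 and 1.27 and a shift of -0.71 (limma, adjusted p = 0.11). In the lists of the respiratory chain, the proteasome and ribosome biogenesis, 41 of 45, 24 of 28 and 23 of 25 shifts were below 0, and 0 of each passed (8, 4 and 4 at an unadjusted p under 0.05, limma), while with quantile normalization 1 of the respiratory chain did. The median EE changes were -0.01, 0.02 and 0.01 and took either sign with the scaling. The median control changes were 0.11, 0.16 and 0.12 and were above 0 under each scaling. Lists with a median shift above 0 included antigen presentation (0.23), complement and coagulation (0.21), mucosal secretion (0.15) and stratified epithelium markers (0.58). For the stratified markers, 0 of 9 shifts passed (0 at an unadjusted p under 0.05, limma), and the summed intensity of 7 markers ran from 1880 to 6410 on EE arrays at 48 h and from 2530 to 7420 at 72 h, a wide spread within each group. Mucosal genes rose with EE in 5 of 14 tested (background 4.11%), among them the immunoglobulin transporter Pigr (0.56), the antimicrobial lectin Reg3g (0.89) and the mucin Muc1 (0.65), and in 2 without arrays 71 and 84. Smooth muscle markers rose in 6 of 22 (background 4.11%), but in 1 with quantile normalization and in 0 without these arrays.

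**Figure D4:**
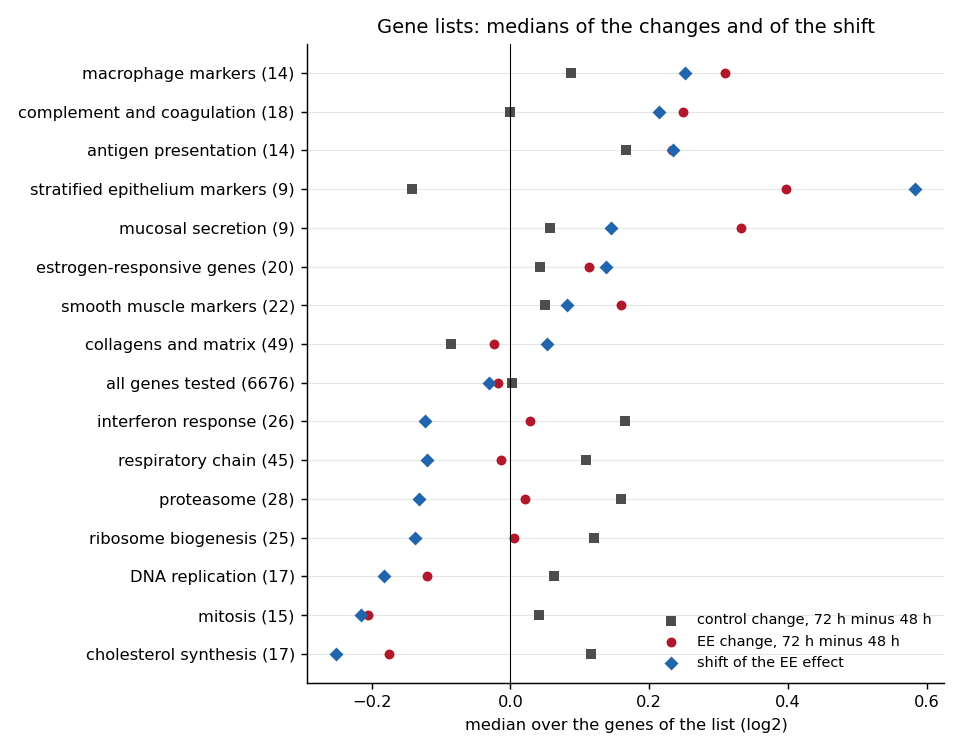
For 16 rows of genes (15 lists and all genes, with the number tested for the shift in brackets), the median control change (grey squares), EE change (red circles) and shift of the EE effect (blue diamonds) are given in log2. Median shifts of macrophage markers and antigen presentation lie to the right of 0, those of mitosis and cholesterol synthesis to the left, and in the respiratory chain, proteasome and ribosome biogenesis the control medians of 0.11 to 0.16 lie to the right of EE medians near 0.

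The EE effects at the earlier times of the series, 2 h to 28 h, put these shifts into the course of the response. C1qa was lowered by EE at 24 h and 28 h, with an effect of -0.56 each time, and C1qc with -0.40 and -0.47, while neither passed at 2, 4 or 8 h. At 48 h their effects of 0.04 and 0.08 did not pass, and at 72 h they were 1.26 and 1.08. Ccn3 (lowest at 28 h, -0.92), Htra3 (-0.49 at 28 h) and A2m (-0.83 at 28 h) were likewise lowered from 8 h to 28 h and raised at 72 h. The third chain, C1qb, differed: its effects of -0.223 at 24 h and -0.195 at 28 h did not pass. Before that it was lowered at 4 h (-0.252), and it was already raised at 48 h (0.661). Cpe was lowest at 28 h, with an effect of -2.21, and Smad3 at 24 h, with -0.83. Cct7 and Ruvbl1 went the other way: their effects of 1.06 and 0.82 at 8 h, 0.48 and 0.26 at 28 h, and -0.20 and -0.66 at 72 h all passed. Hnrnpm was raised at 24 h, 28 h and 48 h (0.79, 0.61 and 0.58) and not at 72 h. Irf9 was lowered at 4 h and 8 h, with effects of -0.44 and -0.71, and raised by 0.44 at 48 h. Folr1 passed at each time from 24 h on, with effects of 0.53, 0.83, 1.37 and 2.20. Mfap2 was lowered at 8 h (-1.05), had effects of -0.06 and -0.16 at 24 h and 28 h that did not pass, and was lowered again at 48 h and 72 h. Meis2 was lowered at each time from 4 h on, with effects between -0.58 and -1.24. The effects at 48 h and 72 h are those from which the shifts were formed.

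**Figure D5:**
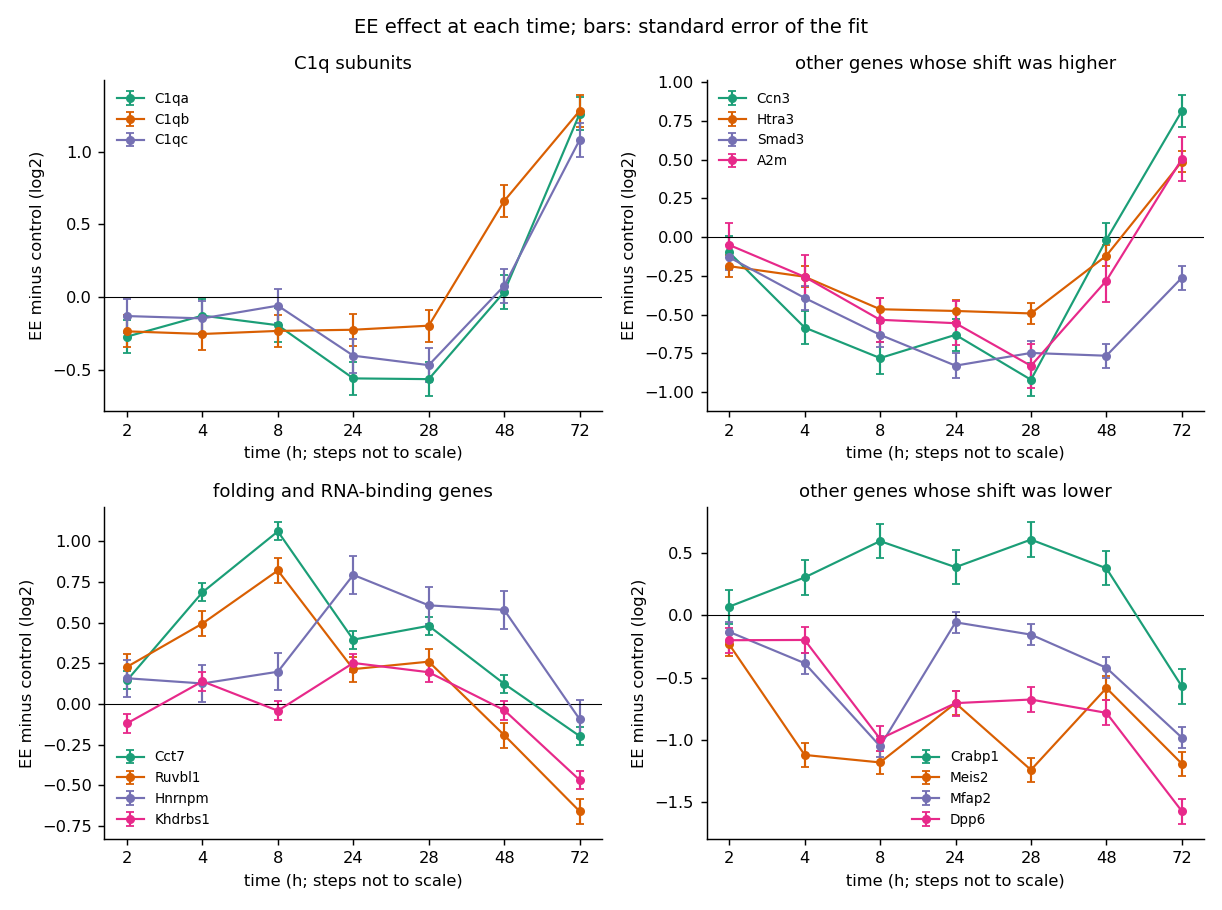
EE effects (EE minus control, log2, vertical axis) with standard errors at each of the 7 times (horizontal axis, steps not to scale) for 15 genes in 4 panels. The C1q chains, Ccn3, Htra3 and A2m run from below 0 at 28 h to between 0.49 and 1.28 at 72 h. For C1qb the 28 h effect did not pass, and its effect was already 0.661 at 48 h. Cct7 and Ruvbl1 fall from their highest values at 8 h, and Crabp1 turns below 0 at 72 h.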

How the data were processed

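Total RNA of rat uterus was hybridised to Affymetrix RAE230A arrays, 5 µg per array, per the labels' protocols. The deposited values are linear intensities per probe set. How the authors summarised and scaled them, and why 37.2% of cells are blank, is not given in the sources used here. No file gives counts, so the number of arrays limits the precision. Of 15923 probe sets, 12783 carried 1 gene, 312 several, 2771 no gene name and 57 were controls, and for each of 10411 genes the probe set with the highest mean was used. The offset of 30.4 is the 10th percentile of intensities. Blanks were left out, and a gene needed 3 of 5 values in each group compared. Means of all 14 uterus groups were fitted, which share 1 variance per gene, moderated with limma 3.58.1 (squeezeVar) in R 4.3.3, with two-sided tests. The fit was tested on simulated data. No pair of arrays held identical values. Samples were grouped by title. Named genes were the 12 largest shifts in each direction among genes that passed and were above the median intensity, up to 3 per list, the 6 with the smallest adjusted p in each arm, those with opposite effects, and a fixed set of estrogen genes. Bap1, Npc2, Plxna3, Rcbtb2 and Slc39a8, and all genes without a passing shift other than that fixed set, Hspd1 and Zdhhc14, were named after their values were seen. The comparison, the 48 gene lists (1132 of 1374 entries matched) and their members were chosen with earlier results of these data known, and no set test was run. Alternatives were the offset, scaling, handling of blanks, filters, probe sets, the groups fitted, a variance trend and leaving out each array. Promoters are from RefSeq (GRCr8), matched by symbol, and motif searches followed the results. Figures were drawn with matplotlib 3.10.9.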

Additional observations from a re-analysis of the deposited data

Results flagged for a closer look

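The shift of the EE effect, an interaction of treatment and time, passed in these 34 genes (limma, adjusted over 6676 genes). The higher shifts, in log2, were 1.22 for C1qa, 1.0 for C1qc, 0.83 for Ccn3, 0.83 for Folr1, 0.784 for A2m, 0.748 for Sat1, 0.743 for Clec10a, 0.699 for Cpe, 0.622 for Cxcr4, 0.618 for C1qb, 0.606 for Htra3, 0.562 for Fndc1, 0.56 for Pfkp, 0.503 for Smad3 and 0.432 for Npc2. The lower shifts were -0.946 for Crabp1, -0.783 for Dpp6, -0.671 for Hnrnpm, -0.666 for Herpud1, -0.607 for Meis2, -0.559 for Mfap2, -0.555 for Eif2ak2, -0.517 for Slc39a8, -0.511 for Rprm, -0.502 for Irf9, -0.468 for Ruvbl1, -0.441 for Maged1, -0.429 for Khdrbs1, -0.408 for Plxna3, -0.406 for Rcn3, -0.402 for Aamp, -0.37 for Rcbtb2, -0.321 for Cct7 and -0.221 for Bap1.

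Among 179 groups of 4 or 5 values of the named genes, 12 (6.7%) held an array far from the others by Dixon's 95% criterion, and chance gives about 1 in 20. Among EE arrays of 48 h, array 71 was low for C3 (1486) and S100g (1047) and high for Ruvbl1 (84.55). Among EE arrays of 72 h, array 84 was high for C3 (4871) and Kap (3450), array 82 high for Pgr (228.8) and array 81 low for Fndc1 (39.09). Among control arrays of 72 h, array 77 was high for A2m (111.5) and low for Fndc1 (36.4), and array 78 low for Hspd1 (805.4). Among control arrays of 48 h, array 61 was high for Pfkp (260.9) and array 66 low for Rprm (688.7). The shift of Ruvbl1 did not pass without array 71 and that of Rprm not without array 66.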

How the results depend on the processing

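Of the 34 shifts, 0 changed sign under any alternative, and 6 (C1qa, C1qc, Ccn3, Sat1, Htra3 and Pfkp) passed in all 20 fits without 1 array and under all 13 other settings. The shift count of 34 was 9 with only the 4 groups in the fit (7 shared), 66 with blanks set to the lowest value of their array (31 shared) and 14 without arrays 71 and 84, a setting chosen after seeing the data. It ran from 18 to 60 when 1 array was left out, and from 9 to 66 over the other settings. The EE change count of 753 was 444 with only the 4 groups and 108 without arrays 71 and 84 (104 shared), and ran from 287 to 770 without 1 array. The control change count of 133 was 38 with only the 4 groups and ran from 30 to 269 without 1 array. The fit of 4 groups takes its variances from the arrays of these groups alone. The causes of the differences between settings, this one included, were not tested. The counts for the EE effect stayed within 1.5 times the main count, at 3818 to 4077 (72 h) and 3719 to 3987 (48 h) without 1 array and at 2858 to 4693 and 2819 to 4532 over the other settings. Shifts that never passed changed sign in Esr1 (0.314 with blanks set to the lowest value, -0.162 to 0.0439 without 1 array), Igf1 (-0.158 to 0.000457 without 1 array), Vegfa (-0.05 with the mean of probe sets) and Fos (-0.0056 to 0.284 without 1 array, -0.043 without arrays 71 and 84). No paired analysis was possible because the groups compared share no replicate number in the titles. With 5 arrays per group and a median SE of 0.117, small shifts were below what could be detected, and genes with blank controls could not be tested for a shift.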

Other observations

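Some genes changed on the EE arrays or in the controls without a test of the shift or without passing it. Mmp7, a matrix protease of epithelia, and Lpo, lactoperoxidase, rose with EE from 48 h to 72 h, by 1.13 and 1.10 (limma, log2), while all their control arrays were blank. Mmp7 read 478.3 to 1414 and then 1900 to 3065, and Lpo 60.56 to 336 and then 311.7 to 907.5. The EE change of Lpo did not pass without array 71 (0.795, adjusted p = 0.102), without array 84 (0.849, adjusted p = 0.116) or without both (0.54, adjusted p = 0.261), and that of Mmp7 passed in each case (0.767 without both). Ccl11, the eosinophil chemokine eotaxin, read 362.7 to 836.8 and then 948.7 to 1586 on EE arrays, and 24.32 to 52.79 on control arrays of both times. In the controls, the chaperones and cochaperones Fkbp4, Hspa5, Stip1 and Manf rose by 0.55, 0.51, 0.48 and 0.42. Of these, Fkbp4 and Manf also rose with EE, by 0.37 and 0.31, and the EE changes of Hspa5 and Stip1 did not pass (0.15 and 0.21). The EE change of Fkbp4 did not pass without array 71, without array 84 or without both (limma, adjusted p = 0.0968, 0.104 and 0.301). That of Manf failed in the same fits (adjusted p = 0.105, 0.146 and 0.314) and with quantile normalization (adjusted p = 0.0772). Also in the controls, the water channel Aqp5 rose by 0.71, while Palld, an actin-bundling protein, fell by 1.07 and Ccn2, a matricellular protein, by 0.50. These genes were named after their values were seen.

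Of 10411 genes on the arrays, a few had values on all 5 arrays of a treatment at 1 time and on 0 at the other. No test was run on them. Cdx2, a homeobox gene of the intestine, was such a case with EE at 72 h (mean intensity 66.9), with values on 3 of 5 control arrays at each time. Ercc6, Rnpc3 and Rusc2 had values on all 5 EE arrays at 48 h and on 0 at 72 h, at mean intensities of 33.2, 14.5 and 50.5. Kif5a and Pla2g6 had values on all 5 control arrays at 48 h and on 0 at 72 h. Why cells are blank is not given in the sources used here.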
